A study of Mus musculus with 8 samples.

Results

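Myeloid cells are specified by a small set of transcription factors, and 9 of these genes (Sall1, Maf, Mef2a, Mef2c, Spi1, Runx1, Cebpa, Cebpb and Cebpd) were followed here in brain immune cells after peripheral LPS exposure. They were picked by symbol out of the 32227 genes counted, and each was present in the counts. The levels were read in 101184 of 119053 cells: 87655 microglia, 5721 macrophages, 5619 monocytes, 1706 neutrophils and 483 dendritic cells, gated by marker genes that did not include any of the 9 factors.

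The 8 libraries came from 8 male C57Bl/6J mice (5 to 6 months of age by the sample labels), 1 library per mouse, and held CD45+ cells taken by magnetic selection from brains that had not been perfused, so blood cells within vessels were included. A mouse had received saline or LPS (15000000 EU/kg, intraperitoneal), and its brain was collected 24 hours later. The brain was then dissociated with enzymes in the presence of the vehicle DMSO or of inhibitors of transcription and translation (actinomycin D, triptolide and anisomycin). Each of the 4 combinations had 2 mice, replicate 1 captured on day 1 and replicate 2 on day 2, and RNA was counted as unique molecules (UMIs) with PIPseq, a droplet method that needs no microfluidic chip. All 8 mice were otherwise alike by their labels, and saline mice were the controls for LPS in both dissociations.

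As background, PU.1 (encoded by Spi1) is a main factor of myeloid development and RUNX1 one of early blood formation. PU.1 opens enhancers together with partners that differ between lineages. SALL1 keeps the identity of microglia, MEF2 factors and MAF take part in the enhancers of resident macrophages, and the C/EBP family drives monocytes and granulocytes. C/EBPβ and C/EBPδ are also induced quickly by inflammatory signals and by stress, so their transcripts can change while tissue is handled.

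Levels are given as CPM, UMIs of the gene per 1000000 UMIs of the class in that library, and libraries are listed in the order DMSO replicate 1, DMSO replicate 2, inhibitors replicate 1 and inhibitors replicate 2. Differences are log2 fold changes ± SE from edgeR's quasi-likelihood test on summed UMIs, with library sizes scaled by TMM, and a difference was called at a Benjamini-Hochberg adjusted p under 0.05 over all genes tested in the class. The scaling matters for the LPS comparison: without it the median log2 fold change of all genes was lower by 0.76 in microglia, 0.34 in macrophages, 0.20 in dendritic cells, 0.13 in neutrophils and 0.08 in monocytes, so a TMM fold change lies above the plain ratio of the CPM. Beside it, ribosomal protein genes took 7.11 to 8.67% of microglial UMIs with saline and 14.1 to 17.4% with LPS, and the median microglia held 2248 to 3230 and 4784 to 5502.5 UMIs. Their part in the scaling was not tested.

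The classes carried the markers they were gated on, with limits. Libraries held 90352359 to 141182123 UMIs and 12039 to 17364 cells, and pairs of libraries shared 0 to 25 cell barcodes. Microglia had 4557 to 5268 CPM of P2ry12 with saline and 149 to 205 CPM with LPS. Macrophages had 2871 to 3486 and 712 to 1027 CPM of Mrc1, and also held the summed 16 microglial markers at 22304 to 25472 CPM with saline and 11661 to 15910 CPM with LPS, against 62196 to 69256 CPM and 26293 to 33025 CPM in microglia. The dendritic cells differed in marker genes between the 2 arms: with saline they had 838 to 2103 CPM of Cd209a and 94.3 to 213 CPM of Xcr1, whereas with LPS Xcr1 was at 0, Cd209a was at 0 to 20.1 CPM and Ccr7, a marker of migratory dendritic cells, was at 3099 to 4415 CPM. They also rested on few cells (34 to 38 per saline library and 57 to 125 per LPS library), as did neutrophils with saline (51 to 193) and monocytes with saline (114 to 290). The neutrophil class moved in some markers too: Ly6g was at 392 to 1100.4 CPM with saline and 124 to 242 CPM with LPS. Cd74 was at 419 to 1698 and 88.9 to 239 CPM. The sum of 13 neutrophil markers, Ly6g among them, overlapped between the arms, at 153001 to 297971 and 174323 to 275870 CPM. S100a8 and S100a9 overlapped as well. The sum of 12 monocyte markers, of which 11 with saline and 8 with LPS reached 5 CPM, was at 2828 to 6807 and 10494 to 14381 CPM. The monocyte class held the same sum at 9164 to 10570 CPM with saline and 6997 to 8012 CPM with LPS. The part of the shifts of neutrophil markers in the neutrophil values was not tested. Less RNA of a factor per cell and a shift among the cells within a class cannot be told apart in these summed values.

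At baseline most of the factors differed between microglia and the other classes. In 1 fit over the 5 classes with the mouse as a block, levels with saline differed from microglia for 7 of 9 factors in macrophages (3 higher, 4 lower), where 41.8% of 13276 tested genes were called, for 9 of 9 in monocytes (3 higher, 6 lower; background 56.4%), for 8 of 9 in neutrophils (3 higher, 5 lower; background 52.9%) and for 7 of 9 in dendritic cells (all lower; background 32.7%). The Runx1 call in monocytes (-0.40 ± 0.15, adjusted p = 0.0182) was lost in 9 of 16 alternatives, among them 4 that left out 1 library (-0.33 to -0.26), library size alone (-0.28) and the stricter gate (-0.27), and Spi1 (0.25) and Cebpd (0.26) in monocytes lost theirs without the filter on low counts. Sall1 (452 to 551 CPM), Mef2a (377 to 470.4 CPM) and Mef2c (422 to 544 CPM) were highest in microglia, and none of the saline libraries of another class reached these ranges. Maf was highest in macrophages, at 1829 to 2399 CPM against 812 to 942 CPM in microglia, a log2 difference of 1.197 ± 0.17 (adjusted p = 1.24e-07). 

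The order was another one for the remaining factors. Spi1 was higher in neutrophils (336 to 586 CPM) and monocytes (278 to 469.7 CPM), which overlapped each other, than in microglia (231 to 255 CPM), dendritic cells (169.8 to 289 CPM) and macrophages (197 to 213 CPM). Dendritic cells overlapped with both microglia and macrophages, microglia lay above macrophages with no overlap, and the highest dendritic cell library reached into the range of monocytes. Cebpd was highest in neutrophils, at 254 to 419.8 CPM, above every library of the other classes, and macrophages (95.1 to 177 CPM) and monocytes (102 to 165 CPM) overlapped below it. Cebpb was highest on average in monocytes (546 to 1585 CPM), but monocytes overlapped with neutrophils, neutrophils with macrophages and macrophages with microglia, and dendritic cells were lowest at 0 to 28.8 CPM with no overlap. Cebpa overlapped along the order microglia, macrophages, monocytes and dendritic cells, and was lowest in neutrophils at 65.8 to 99.4 CPM. Runx1 lay at 115 to 148 CPM in microglia, and each class overlapped with the next.

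**Figure D1:**
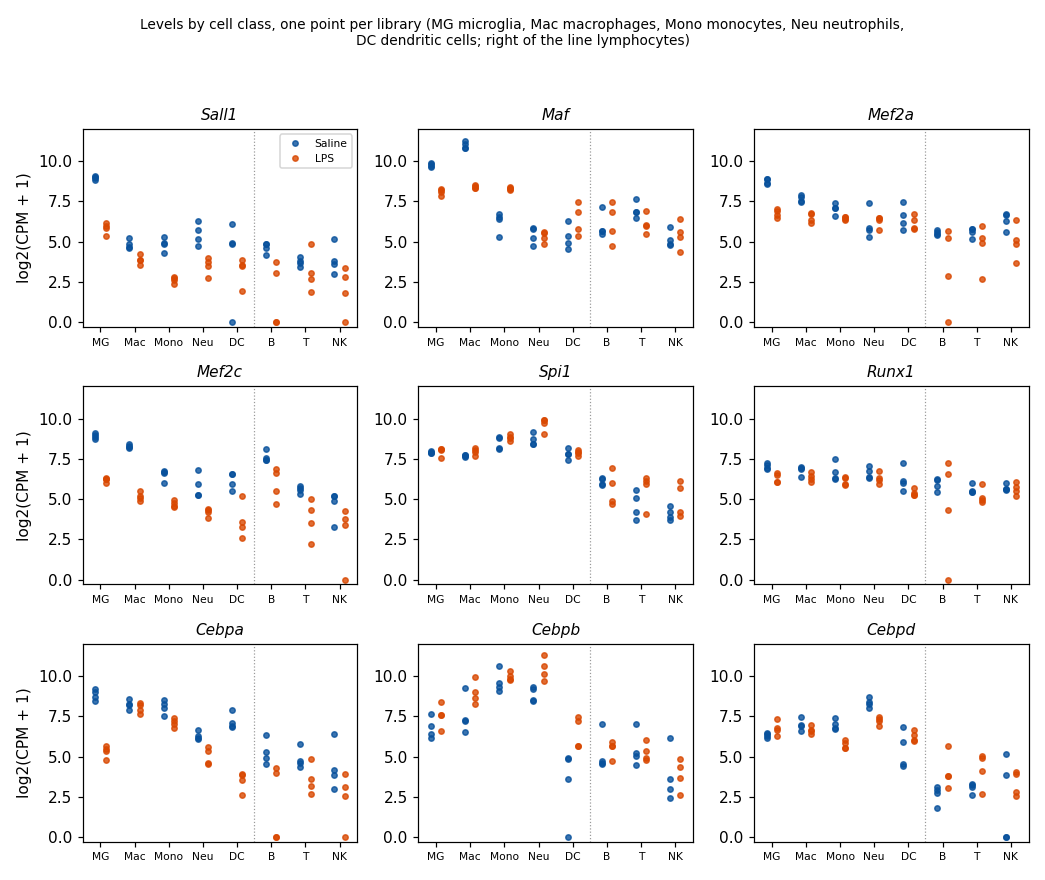
Levels of the 9 factors as log2(CPM + 1) on the vertical axis, 1 point per library, in 5 myeloid classes and, right of the dotted line, in B-cells, T-cells and NK cells, with saline libraries in blue and LPS libraries in orange. Sall1 with saline lies at 452 to 551 CPM in microglia and at 6.98 to 35.4 CPM in lymphocytes.

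Peripheral LPS exposure was followed by changes of some of these factors in each class. The comparison of 4 LPS with 4 saline libraries, with the dissociation as a covariate, asked how each lineage factor responded in each class. It called 8 of 9 factors in microglia (3 higher, 5 lower), where 63.2% of 20995 tested genes were called (29.1% higher and 34.1% lower), and 6 of 9 in macrophages (2 higher, 4 lower), where 50.2% of 11172 genes were called (25.0% higher and 25.2% lower). It called 6 of 9 in monocytes (1 higher, 5 lower) against 28.9% of 12013 genes (13.8% higher and 15.2% lower), 6 of 9 in neutrophils (2 higher, 4 lower) against 21.9% of 6194 genes (11.5% higher and 10.4% lower), and 3 of 7 in dendritic cells (1 higher, 2 lower) against 37.8% of 3457 genes (19.1% higher and 18.7% lower). Sall1 and Cebpb did not pass the filter on low counts in dendritic cells. In microglia, macrophages and dendritic cells the counts were not far above the background and say little about the factors as a group. In monocytes and neutrophils they lay further above it, but several of those calls were lost in other fits, as given below. Calls of this comparison that were lost with the stricter gate are given only as a count, near the end. The factors were also chosen with earlier results of these data known, and they were not tested as a group.

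**Figure D2:**
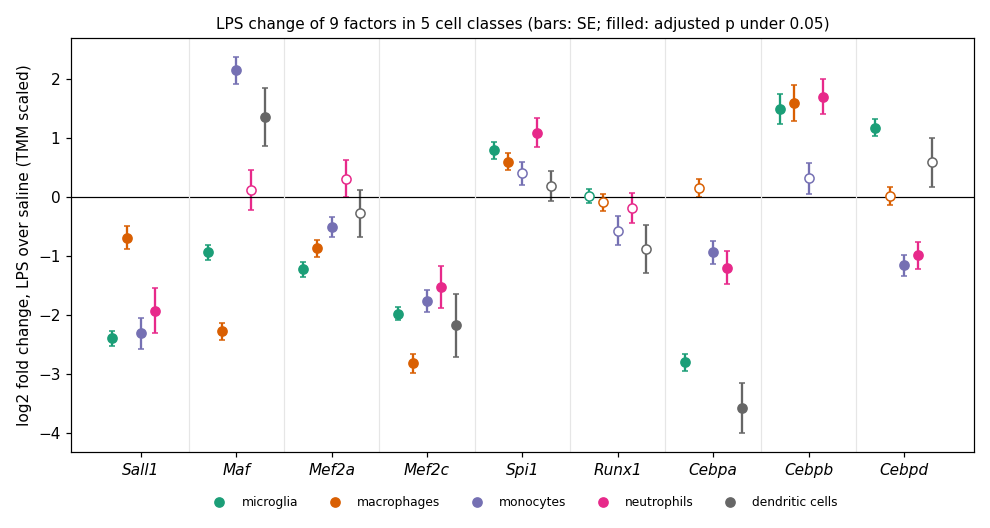
Log2 fold change of LPS over saline (TMM scaled, vertical axis) for each factor, with 1 point per class in the color of the legend, bars for the SE, and filled points for adjusted p under 0.05. Mef2c is lower in all 5 classes (-2.81 to -1.51), whereas Maf is lower in microglia and macrophages and higher in monocytes (2.15).

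Sall1, a zinc finger factor confined to microglia among brain myeloid cells, fell steeply. It had 551, 517, 492 and 452 CPM in the saline libraries of microglia and 71.5, 58, 61.4 and 40 CPM in the LPS libraries. All LPS libraries lay below all saline libraries, and the log2 fold change was -2.39 ± 0.13 (adjusted p = 1.22e-08). Within capture day 1 and day 2 it was -2.04 and -2.62. After each cell was thinned to 800 UMIs, 32.5% of microglia held a Sall1 UMI with saline (30.2 to 34.6% over libraries) and 4.54% with LPS (3.22 to 5.52%); without thinning the shares were 67.7 and 23%.

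**Figure D3:**
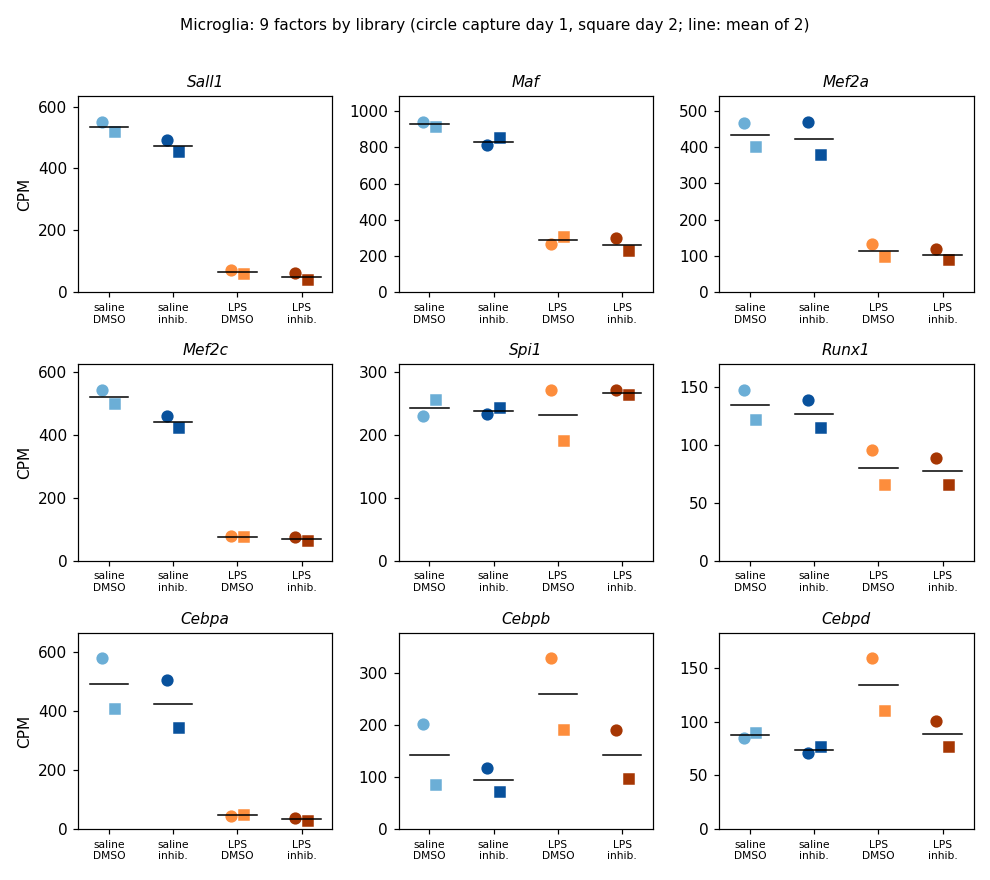
CPM of the 9 factors in microglia (vertical axis from 0) by group, with circles for capture day 1, squares for day 2 and a line at the mean of the 2 libraries. Sall1, Maf, Mef2a, Mef2c, Runx1 and Cebpa have no LPS library within the range of saline, and Spi1, Cebpb and Cebpd overlap.

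Outside microglia Sall1 was set beside cells that should lack it. The thinned share with saline was 2.43% in B-cells, 1.23% in T-cells and 1.2% in NK cells, beside 2.37% in macrophages, 3.02% in monocytes and 5.02% in neutrophils, with median depths of 1638 to 3628 UMIs in the lymphocytes and 1318 to 2644 UMIs in those 3 classes. Barcodes of under 100 UMIs, which hold free RNA, carried 224 to 361 CPM of Sall1 in saline libraries and 41.6 to 75.8 CPM in LPS libraries. The mean share in macrophages did not exceed that of B-cells, and those of monocytes and neutrophils did. Their libraries overlapped with B-cells, at 1.57 to 3.5% in B-cells, 2.58 to 4.3% in monocytes and 3.4 to 7.52% in neutrophils. P2ry12, a marker of microglia, was at 121 to 265 CPM in these B-cells, 158 to 271 CPM in monocytes and 210 to 608 CPM in neutrophils. The part of carried microglial RNA in these shares was not tested. Lower Sall1 was called with LPS in macrophages (-0.68 ± 0.20, adjusted p = 0.00936), monocytes (-2.31 ± 0.27, adjusted p = 3.64e-05) and neutrophils (-1.92 ± 0.38, adjusted p = 0.00161), the direction in which free barcodes moved. In macrophages the value was -0.11 after the expected free RNA was subtracted (adjusted p = 0.802), and it was not called within either capture day or in DMSO or inhibitor libraries alone. In monocytes each LPS library held less Sall1 (4.1 to 6.03 CPM) than the free RNA expected from the share measured in lymphocytes, so after subtraction the value (-7.49, called) is set against a group near 0 and its size is not read. In neutrophils the call was lost in DMSO libraries alone (-1.72) and within day 2 (-1.65), and after subtraction the gene no longer passed the filter on low counts.

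Mef2a and Mef2c, the MADS box factors MEF2A and MEF2C, followed in the same direction. The promoter of Mef2a is shown because it holds the letters GAGGAAG, a core of PU.1 sites, more than once. It is the 250 bases before the start at chr7:67372859-67373108 on the minus strand (RefSeq, GRCm38.p6), 5′ to 3′, with both matches in capitals:
Mef2a: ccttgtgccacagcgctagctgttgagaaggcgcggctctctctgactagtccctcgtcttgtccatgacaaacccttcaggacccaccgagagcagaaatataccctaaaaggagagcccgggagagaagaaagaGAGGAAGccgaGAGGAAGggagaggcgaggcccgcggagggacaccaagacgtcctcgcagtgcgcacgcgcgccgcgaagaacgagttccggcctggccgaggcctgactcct
The matches began 114 and 103 bases before the start and did not overlap. On either strand 10.6% of 32817 promoter windows of this length hold those letters at least once, and the share that holds them more than once was not counted. A match describes the sequence, and no binding was measured.

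Mef2a had 467, 401, 470.4 and 377 CPM in saline microglia and 132, 98, 119 and 88 CPM in LPS microglia (-1.22 ± 0.12, adjusted p = 2.38e-06). In macrophages it went from 179.8 to 241 CPM to 70.3 to 109.8 CPM (-0.86 ± 0.14, adjusted p = 0.000138), and in both classes the arms were apart. With saline microglia and macrophages each stood apart, while monocytes, dendritic cells and neutrophils overlapped. With LPS each of the classes overlapped the next, from 88 to 132 CPM in microglia to 54.1 to 106 CPM in dendritic cells. In monocytes the value was -0.50 ± 0.17 (adjusted p = 0.045), but the call was lost when any of 7 libraries was left out and within either capture day (-0.67 and -0.23). Neutrophils (0.32 ± 0.31, adjusted p = 0.504) and dendritic cells (-0.27 ± 0.40, adjusted p = 0.626) did not pass the test, and the LPS change of Mef2a was higher than that of microglia by 2.11 ± 0.28 (adjusted p = 3.33e-08) in neutrophils and 1.54 ± 0.34 (adjusted p = 0.000759) in dendritic cells, on the log2 scale.

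Mef2c fell in all 5 classes, the only factor called in the same direction in each, although the call in neutrophils was lost in DMSO libraries alone (adjusted p = 0.199) and within capture day 2 (adjusted p = 0.13). It had 544, 499.6, 459.8 and 422 CPM in saline microglia and 77.6, 74.3, 76.1 and 63.5 CPM after LPS (-1.97 ± 0.11, adjusted p = 1.36e-08). The fall was larger in macrophages, from 337, 292, 296 and 309.9 CPM to 32.2, 44, 35.8 and 29 CPM (-2.81 ± 0.16, adjusted p = 1.8e-09), and the difference between the 2 falls was -0.54 ± 0.20 (adjusted p = 0.0401). That difference was no longer called with library size alone (-0.41) or when any of 4 single libraries was left out (-0.53 to -0.46). Monocytes (-1.76 ± 0.19), neutrophils (-1.51 ± 0.35) and dendritic cells (-2.17 ± 0.53) started from lower levels, of 62.9 to 107, 36.8 to 110.5 and 44.9 to 94.3 CPM. After thinning, 8.33, 5.4 and 6.42% of their cells held a Mef2c UMI with saline, beside 3.81% of T-cells and 2.28% of NK cells. Free barcodes moved alongside, from 271 to 422 CPM with saline to 70.9 to 96 CPM with LPS, and after free RNA was subtracted the value was -2.05 in monocytes (called), while Mef2c no longer passed the filter on low counts in neutrophils and dendritic cells.

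Maf, a basic leucine zipper factor of resident macrophages, fell in microglia and macrophages and rose in monocytes. Macrophages had 2399, 1842, 2121 and 1829 CPM with saline and 317, 364, 347 and 316 CPM with LPS (-2.27 ± 0.15, adjusted p = 8.23e-09), and microglia 942, 913, 812 and 849.7 and 267, 308, 297 and 228 CPM (-0.93 ± 0.13, adjusted p = 5.01e-05). Monocytes had 82.4, 38.9, 105 and 92.1 CPM with saline and 324, 302, 340.4 and 314 CPM with LPS (2.15 ± 0.23, adjusted p = 1.56e-05). The arms were apart in these 3 classes, low after LPS in the resident pair and high after LPS in monocytes. Markers of the macrophage class were lower with LPS as well: the sum of 11 macrophage markers, all of which reached 5 CPM, was 13297 to 15120 CPM with saline and 4282 to 5116 CPM with LPS, Cd74 was at 10162 to 19236 and 3089 to 4490.5 CPM and Cd209a at 64.8 to 185 and 0 to 1.94 CPM. Their part in the macrophage values was not tested. The LPS change of monocytes differed from that of microglia by 3.39 ± 0.27 (adjusted p = 1.68e-14), and after LPS macrophages, monocytes and microglia lay within 316 to 364, 302 to 340.4 and 228 to 308 CPM, each overlapping the next.

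The rise of Maf in monocytes was also seen in cells. After thinning, 6.54% of monocytes held a Maf UMI with saline (4.09 to 7.93%) and 17.3% with LPS (16.9 to 17.9%), beside 9.21 and 4% of T-cells, 5.25 and 5.82% of B-cells and 3.58 and 3.28% of NK cells. The saline share of monocytes thus lay below that of T-cells and near that of B-cells, and the LPS share above all 3. Free barcodes carried 462 to 627 CPM of Maf with saline and 216 to 258 CPM with LPS, the opposite direction, and the value was 3.02 after free RNA was subtracted. The monocyte class changed in other ways at the same time: Cd74, part of antigen presentation, was at 3535 to 11067 CPM with saline and 472 to 777 CPM with LPS, and Plac8 at 2174 to 2880.3 and 1336 to 1811 CPM. Cd209a was at 81.1 to 294 CPM with saline and 0 to 0.547 CPM with LPS. The sum of 11 B-cell markers, of which 11 with saline and 2 with LPS reached 5 CPM, was 248 to 689 and 29.3 to 52.8 CPM. For 9 NK cell markers, of which 3 and 1 did, it was 67.5 to 560 and 13.4 to 24.8 CPM. S100a8, a marker of neutrophils, was at 32.8 to 4464 and 221 to 755 CPM. Of the macrophage markers, Pf4 (3.31 to 12.1 CPM with saline, 19.8 to 60.3 CPM with LPS) and Cd163 (6.62 to 9.69 and 19.4 to 35.5 CPM) were higher in every LPS library. Mrc1 (26.5 to 80 and 8.75 to 17.8 CPM) was lower, and so was the sum of 11 such markers (954 to 1301 and 531 to 674 CPM), of which 8 with saline and 9 with LPS reached 5 CPM. The part of such a change in the cells behind the Maf value was not tested. In dendritic cells Maf was 1.36 ± 0.48 (adjusted p = 0.0311) on 2 to 8 UMIs per saline library, with arms that overlapped, and the call was lost when any of 4 single libraries was left out (0.78 to 1.23), with library size alone (1.18), in DMSO libraries alone (0.86), within capture day 1 (1.62) and in DESeq2.

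Spi1, which encodes PU.1, was called higher with LPS in microglia, macrophages and neutrophils. Microglia had 231, 255, 234 and 242 CPM of Spi1 with saline and 272, 191, 271 and 264 CPM with LPS, and the arms overlapped. The TMM value was 0.79 ± 0.15 (adjusted p = 0.000498), but with library size alone it was 0.05 (adjusted p = 0.719), so the call in microglia depends on the scaling. In macrophages the value was 0.60 ± 0.14 (adjusted p = 0.00273) with TMM and 0.27 with library size alone (adjusted p = 0.0985), at 197 to 213 CPM with saline and 207 to 293 CPM with LPS, and the call was also lost in DMSO libraries alone (0.61). In neutrophils Spi1 went from 336, 341, 586 and 419 CPM to 946, 527, 969 and 834 CPM, with LPS libraries higher on the whole and an overlap of the arms (1.09 ± 0.25, adjusted p = 0.00415), and the call held under both other scalings (0.95 with library size alone). It was lost among inhibitor libraries alone (0.94) and within each capture day (1.23 and 0.91). Monocytes (0.41 ± 0.19, adjusted p = 0.13) and dendritic cells (0.19 ± 0.26, adjusted p = 0.598) did not pass the test.

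Runx1, the core binding factor subunit of early blood formation, was not called in any class in the comparison of all 8 libraries under TMM. In microglia it had 148, 122, 139 and 115 CPM with saline and 95.7, 65.4, 89.1 and 65.6 CPM with LPS, lower in every LPS library, and the TMM value was 0.02 ± 0.12 (adjusted p = 0.906). With library size alone the sign turned and the gene was called lower (-0.73, adjusted p = 0.000465), and within capture day 1 it was called higher under TMM (0.30, adjusted p = 0.0186). In the other classes the values were -0.09 ± 0.14 (adjusted p = 0.634) in macrophages, -0.57 ± 0.24 (adjusted p = 0.0966) in monocytes, -0.19 ± 0.25 (adjusted p = 0.644) in neutrophils and -0.88 ± 0.40 (adjusted p = 0.0928) in dendritic cells. With library size alone the value was called in macrophages (-0.43) and dendritic cells (-1.07), and under TMM it was called in monocytes with the capture day as a replicate block (-0.53, adjusted p = 0.0475) and with the stricter gate (-0.67, adjusted p = 0.0379). 

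In microglia Cebpa fell while Cebpb and Cebpd rose. The promoters of Cebpa and Cebpb are shown because these 2 genes moved in opposite directions. Each is the 250 bases before the start on the plus strand (RefSeq, GRCm38.p6), at chr7:35119043-35119292 for Cebpa and chr2:167688665-167688914 for Cebpb, written 5′ to 3′ with the TATA box letters TATAAA and the core letters of cAMP response elements, TGACG, on either strand in capitals:
Cebpa: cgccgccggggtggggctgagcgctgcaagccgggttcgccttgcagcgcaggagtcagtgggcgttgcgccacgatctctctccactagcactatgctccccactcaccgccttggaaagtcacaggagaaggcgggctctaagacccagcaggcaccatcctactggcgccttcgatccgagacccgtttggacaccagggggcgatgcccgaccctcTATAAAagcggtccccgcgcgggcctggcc
Cebpb: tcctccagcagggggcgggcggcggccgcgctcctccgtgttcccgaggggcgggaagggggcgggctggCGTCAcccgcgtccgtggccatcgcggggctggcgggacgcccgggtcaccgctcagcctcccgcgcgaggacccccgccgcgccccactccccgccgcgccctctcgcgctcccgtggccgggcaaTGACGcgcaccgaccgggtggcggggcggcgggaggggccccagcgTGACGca
Cebpa held TATAAA 30 bases before the start, and Cebpb held TGACG 3 times, at 180, 53 and 7 bases before it. TATAAA occurs in 12.4% and TGACG in 17.7% of 32817 windows. The bases G and C made up 66.4% of the Cebpa window and 81.6% of the Cebpb window. The C/EBP letters TTGCNNAA (9.57% of windows), the PU.1 letters GAGGAAG (10.6%), the MEF2 letters CTAAAAATA (0.469%), the NF-κB letters GGGANTTTC (0.942%), the AP-1 letters TGANTCA (6.75%) and the RUNX letters TGTGGT (14%) were searched for on both strands and are not in these 2 windows. Windows were matched for 6 of the 9 factors, and Maf, Spi1 and Cebpd had none.

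Cebpa, the C/EBP factor of myeloid progenitors and of resting macrophages, had 578, 408, 506 and 342 CPM in saline microglia and 43.7, 48.3, 39 and 26.9 CPM in LPS microglia. Every LPS library was far below every saline library, with a log2 fold change of -2.80 ± 0.14 (adjusted p = 6.05e-09). In macrophages the gene had 374, 299.9, 291 and 234 CPM with saline and 297, 238, 322 and 203 CPM with LPS, arms that overlapped (0.16 ± 0.15, adjusted p = 0.388). The difference between these 2 changes was 3.23 ± 0.20 (adjusted p = 1.49e-17), the largest over microglia among the factors in that class. After LPS macrophages held the highest Cebpa (203 to 322 CPM), above monocytes (108 to 165 CPM) and microglia, with no overlap between macrophages and monocytes.

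Cebpa also fell in the other 3 classes. The values were -0.93 ± 0.19 (adjusted p = 0.00271) in monocytes, -1.20 ± 0.28 (adjusted p = 0.00519) in neutrophils and -3.57 ± 0.43 (adjusted p = 8.45e-07) in dendritic cells. Dendritic cells had 236, 112, 133 and 119.7 CPM with saline and 14.2, 10.8, 13.3 and 5.03 CPM with LPS, on 10 to 25 and 1 to 5 UMIs per library, and their marker genes differed between the arms as given above. Free barcodes moved alongside, from 186 to 401 CPM with saline to 42.4 to 96.4 CPM with LPS, and after subtraction the values were -0.78 in monocytes, -1.07 in neutrophils and -4.41 in dendritic cells, all called. In monocytes, whose markers differed between the arms as given above, the call was lost within capture day 2 (-0.62) and in DMSO libraries alone (-1.02). In neutrophils it was lost without the filter on low counts (-0.99), within inhibitor libraries (-0.82) and within either capture day, with values of -1.32 and -1.09.

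Cebpb, the C/EBP factor of inflammatory and emergency responses, rose in microglia, macrophages and neutrophils. Neutrophils had 638, 369.8, 575 and 348 CPM with saline and 2516, 1575, 1138 and 830.1 CPM with LPS, all LPS libraries higher (1.70 ± 0.30, adjusted p = 0.000528). Macrophages had 619, 156, 145 and 90.5 CPM and 990.0, 513, 391 and 309 CPM (1.60 ± 0.30, adjusted p = 0.000434), and microglia 201, 84.6, 116 and 70.3 CPM and 327, 189, 189 and 96.6 CPM (1.496 ± 0.25, adjusted p = 0.000182). In both the arms overlapped, and the saline DMSO library of replicate 1 was the highest of the saline libraries. Without that library the values were 2.12 in macrophages and 1.74 in microglia, both called. In macrophages the call was lost in DMSO libraries alone (1.30, adjusted p = 0.0601).

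Monocytes already had 546 to 1585 CPM of Cebpb with saline and 869.9 to 1262 CPM with LPS (0.32 ± 0.26, adjusted p = 0.381), and without the same saline library the value was called (0.75, adjusted p = 0.0211). Dendritic cells had 28.3, 11.2, 28.8 and 0 CPM on 0 to 5 UMIs with saline and 148, 48.7, 172 and 50.3 CPM on 9 to 52 UMIs with LPS. The arms were apart there, but the gene passed the filter on low counts only in other fits, such as the fit with the replicate block (2.74, adjusted p = 8.65e-05). Free barcodes carried 48.9 to 200 CPM of Cebpb with saline and 186 to 430 CPM with LPS. The share of free RNA measured in lymphocytes was 5.49 to 7.53% in saline and 6.43 to 19.5% in LPS libraries. Its part in the value of dendritic cells was not tested.

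Cebpd, the C/EBP factor of the acute phase, rose in microglia and fell in monocytes and neutrophils. Microglia had 85.1, 88.9, 71.1 and 76.2 CPM with saline and 159, 109, 100.2 and 76.4 CPM with LPS, an overlap on the CPM scale (1.18 ± 0.15, adjusted p = 1.31e-05 with TMM, and 0.44 with library size alone, adjusted p = 0.0107). Monocytes went from 165, 127, 102 and 106 CPM to 55.4, 44.9, 63.8 and 45.3 CPM (-1.15 ± 0.18, adjusted p = 0.000349) and neutrophils from 302, 335, 419.8 and 254 CPM to 149, 163, 171 and 119 CPM (-0.99 ± 0.24, adjusted p = 0.00596), with the arms apart in both. In neutrophils the call was lost within day 1 (-1.04) and day 2 (-0.95), in DMSO libraries alone (-0.91) and without the filter on low counts (-0.78). Ly6g was lower with LPS in the same class, while the sum of 13 neutrophil markers overlapped, as given above. Markers of the monocyte class differed between the arms as well. The LPS change minus that of microglia was -2.02 ± 0.21 (adjusted p = 7.15e-11) in monocytes and -1.64 ± 0.22 (adjusted p = 7.06e-08) in neutrophils. Macrophages (0.03 ± 0.15, adjusted p = 0.895) and dendritic cells (0.59 ± 0.42, adjusted p = 0.282) did not pass the test.

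The make-up of the C/EBP transcripts does not depend on the scaling between libraries. Of the UMIs of Cebpa, Cebpb and Cebpd together, Cebpa took 66.9 to 73% in saline microglia and 8.25 to 13.9% in LPS microglia, while Cebpb went from 14.4 to 23.3% to 48.3 to 61.8% and Cebpd from 9.84 to 15.6% to 30 to 38.2%. No library of one arm entered the range of the other for any of the 3 shares. In neutrophils Cebpb took 47.8 to 62.7% and 83.9 to 93.6%, with Cebpd at 29.7 to 43.3% and 5.54 to 12.6%. In monocytes Cebpb took 63.8 to 75% and 81.5 to 87.4%, in macrophages Cebpa took 31.9 to 55.8% and 21 to 39.6% with an overlap, and in dendritic cells Cebpa took 60.5 to 85.7% and 4.35 to 8.7% of 13 to 40 and 23 to 92 UMIs. These are shares of UMIs without a correction for gene length.

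**Figure D4:**
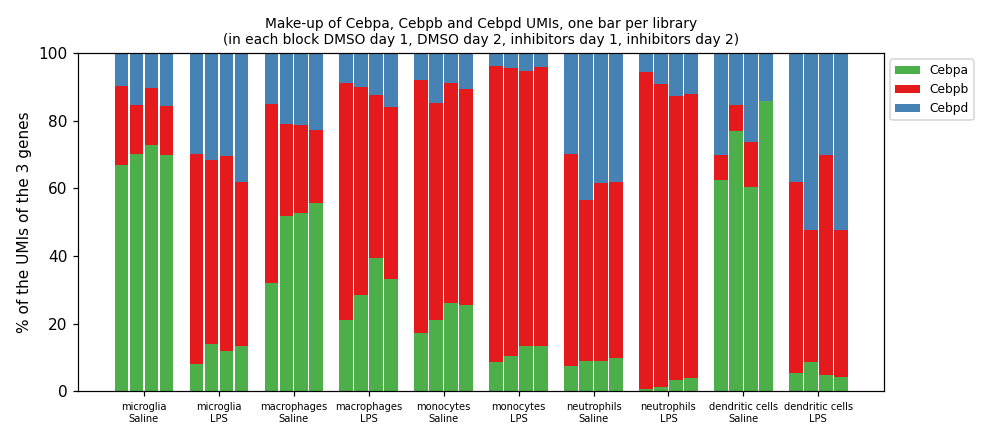
Share of Cebpa (green), Cebpb (red) and Cebpd (blue) in the summed UMIs of the 3 genes (vertical axis, %), 1 bar per library, for the saline and LPS libraries of each class. In microglia the green share falls from 66.9 to 73% with saline to 8.25 to 13.9% with LPS.

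Dissociation was examined by comparing 4 DMSO with 4 inhibitor libraries in a model that also held LPS or saline, since transcripts made during the enzyme steps should be higher with DMSO. None of the 43 tests of the factors was called by edgeR (5 at an unadjusted p under 0.05, and 0 called by DESeq2), and few genes were called at all: 0.376% in microglia, 0.456% in macrophages, 0.0583% in monocytes, 0.0969% in neutrophils and 0.434% in dendritic cells. Cebpb came closest. In macrophages it had 619, 156, 990 and 513 CPM in DMSO libraries (saline replicates 1 and 2, then LPS) and 145, 90.5, 391 and 309 CPM in inhibitor libraries, so that each DMSO library exceeded the inhibitor library of the same arm and day, with a log2 difference of 1.42 ± 0.30 (adjusted p = 0.0593). With the capture day as a replicate block it was called in macrophages (1.29 ± 0.19, adjusted p = 0.00104) and in microglia (0.67 ± 0.11, adjusted p = 0.0135), where the value without the block was 0.71 ± 0.25 (adjusted p = 0.998).

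The other classes gave Cebpb differences of 0.79 ± 0.29 (adjusted p = 0.618) in neutrophils and 0.45 ± 0.26 (adjusted p = 0.869) in monocytes. Within capture day 1 the difference in macrophages was 1.75 and within day 2 0.75, called in both. Leaving out the DMSO library of replicate 2 with saline or with LPS gave calls at 1.62 in each case, whereas without the saline DMSO library of replicate 1, the highest saline library, the value was 0.92 (adjusted p = 0.0904) in macrophages and 0.09 in monocytes. For Cebpd the difference was 0.39 ± 0.14 (adjusted p = 0.998) in microglia and 0.46 ± 0.40 (adjusted p = 1) in dendritic cells. Among the remaining factors the values lay between -0.77 (Sall1 in neutrophils) and 0.49 (Cebpa in dendritic cells).

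**Figure D5:**
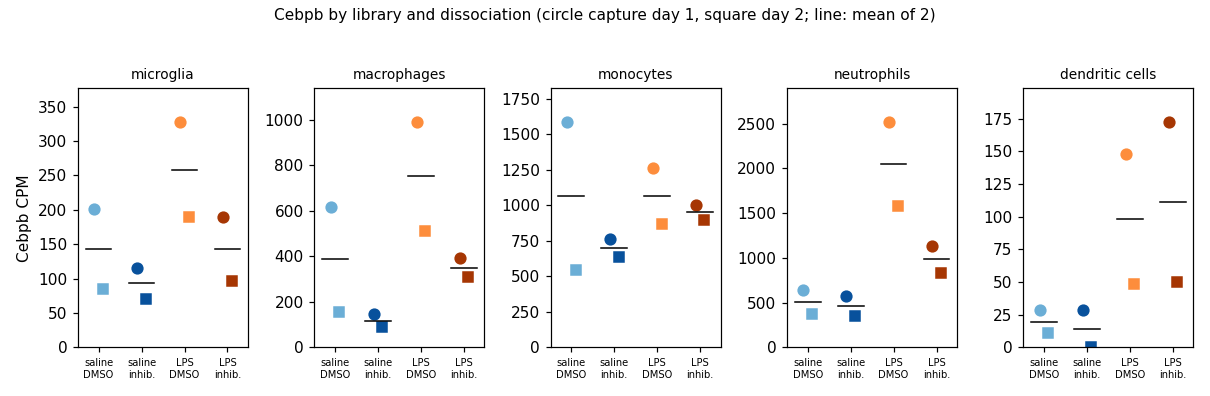
Cebpb CPM (vertical axis from 0, scaled for each class) in the 4 groups, with circles for capture day 1, squares for day 2 and a line at the mean of 2 libraries. In macrophages the saline DMSO library of day 1 (619 CPM) lies above both LPS inhibitor libraries (391 and 309 CPM).

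The LPS change itself was then compared between DMSO and inhibitor libraries. None of 44 interaction tests was called by edgeR (2 at an unadjusted p under 0.05, and 0 by DESeq2), beside 0.0181% of 22100 genes in microglia, 0.0482% of 4149 genes in dendritic cells and 0% in macrophages, monocytes and neutrophils. With 2 libraries per group the intervals were wide: for Cebpb the difference of the log2 changes was 0.28 ± 0.50 in microglia and -0.56 ± 0.61 in macrophages. Among inhibitor libraries alone, in which transcription was blocked during dissociation, LPS changed Cebpa by -2.93, Sall1 by -2.48 and Cebpb by 1.36 in microglia, all called, and Cebpb by 1.87 (called) in macrophages.

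Across classes, the LPS change differed from that of microglia for 6 of 9 factors in macrophages, where 25.8% of 13276 genes differed, for 6 of 9 in monocytes (37.1%), for 7 of 9 in neutrophils (29.0%) and for 2 of 9 in dendritic cells (17.6%). Runx1 was not called in any class, except in monocytes with the stricter gate (-0.53, adjusted p = 0.0278). Spi1 was called in neutrophils (0.83 ± 0.19, adjusted p = 0.000536), but not without the filter on low counts (0.57) or with cells from 1500 UMIs (0.53). Cebpb in neutrophils was not called, except with library size alone (0.86) and when any of 3 single libraries was left out (0.82 to 0.87). The change of Cebpb in monocytes minus that in microglia was -0.77 ± 0.29 (adjusted p = 0.0287), a call that was lost with library size alone (-0.42), without the LPS DMSO library of replicate 1 (-0.60) or the saline inhibitor library of replicate 2 (-0.70), after free RNA was subtracted (-0.76) and without the library block (-0.91). Mef2c in monocytes (0.54 ± 0.21, adjusted p = 0.0362) lost its call in 12 of 16 alternatives, among them 6 that left out 1 library (0.35 to 0.56) and the subtraction of free RNA (0.08). Mef2a in macrophages (0.66 ± 0.20, adjusted p = 0.0128) lost it in 9 of 16, among them 3 that left out 1 library (0.48 to 0.61), and was at 0.36 without the filter on low counts. Maf in macrophages lost it after free RNA was subtracted (-1.23, adjusted p = 0.115). Sall1 was called in macrophages (2.00), which held it in no larger a mean share of cells than B-cells, as given above. The change of Cebpa was higher than that of microglia in macrophages, monocytes (2.19 ± 0.21, adjusted p = 3.65e-12) and neutrophils (2.20 ± 0.30, adjusted p = 1.1e-07). Neutrophils rest on few cells with saline. With a stricter marker gate 5 of their 7 calls were lost: Cebpa (-0.04), Spi1 (0.14), Sall1 (0.83), Maf (1.19) and Mef2c (1.54). That gate took away most LPS neutrophils of replicate 1, leaving 61 of 294 cells with DMSO and 38 of 256 with inhibitors. With saline it left 37 of 73 and 37 of 51 in that replicate. The part of this change of cells in the lost calls was not tested. Sall1 in neutrophils also lost its call when any of 5 single libraries was left out (0.92 to 1.13) and Mef2c when any of 4 was (0.75 to 1.02), and after free RNA was subtracted Sall1 was at 0.75, Mef2c at 0.41 and Maf at 2.49, none of them called.

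Of a list of 40 other factors of the myeloid lineages, 32 were called with LPS in microglia, where 63.2% of all genes were called (10 higher, 22 lower, median -0.42 beside -0.21 over all tested genes). In macrophages 27 of 35 tested were called beside 50.2% of all genes (12 higher, 15 lower, median -0.20 beside -0.04), and in monocytes 19 of 38 beside 28.9% (4 higher, 15 lower, median -0.51 beside -0.06). In neutrophils 7 of 24 were called, near the 21.9% of all genes (3 higher, 4 lower, median 0.23 beside 0.00), and in dendritic cells 13 of 24 beside 37.8% (4 higher, 9 lower, median -0.23 beside 0.05). Id2, an inhibitor of basic helix-loop-helix factors, rose by 4.27 ± 0.20 in microglia, 3.46 ± 0.17 in macrophages, 2.69 ± 0.24 in monocytes and 3.04 ± 0.36 in neutrophils on the log2 scale. Nfil3, a basic leucine zipper repressor, rose by 3.25 ± 0.16 in microglia, 3.98 ± 0.26 in macrophages and 4.59 ± 0.47 in dendritic cells. Klf4, a zinc finger factor of monocytes, rose in microglia (2.49 ± 0.26).

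Among the largest falls, the log2 changes in microglia were -2.86 ± 0.17 for Bhlhe41, -2.41 ± 0.10 for Mitf and -2.12 ± 0.17 for Irf4, and in macrophages -3.42 ± 0.26 for Bhlhe41, -3.35 ± 0.40 for Irf4 and -2.28 ± 0.15 for Lmo2. In monocytes Irf4 (-5.11 ± 0.48), Spib (-4.58 ± 0.56) and Myb (-3.51 ± 0.58) fell, to LPS means of 0.775, 0.458 and 3 CPM. The sum of B-cell markers in this class was lower with LPS too, as given above. That of 12 dendritic cell markers was 357 to 816 CPM with saline and 249 to 391 CPM with LPS. Their part in these falls was not tested. Nr1h3, which encodes the sterol sensor LXRα, and Spic, a factor of iron-handling macrophages, rose in monocytes (3.77 ± 0.40 and 3.49 ± 0.43). In neutrophils Gfi1 (-3.35 ± 0.60) and Myb (-3.42 ± 0.55), genes of immature granulocytes, fell. In dendritic cells Irf8, the factor of conventional dendritic cells, fell by 3.90 on the log2 scale, and Klf2 (-2.93 ± 0.45) and Fli1 (-2.88 ± 0.50) fell too, while Etv3 (1.86 ± 0.31) and Batf3 (1.24 ± 0.37) rose. Some marker genes of neutrophils and of dendritic cells differed between the arms, as given above. Their part in the values of these 2 classes was not tested.

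Of 12 partners and regulators of the C/EBP family, 9 of 11 tested were called in microglia beside 63.2% of all genes (5 higher, 4 lower, median 0.28 beside -0.21), and 6 of 10 in monocytes beside 28.9% (2 higher, 4 lower, median -0.67 beside -0.06). The counts were near the share of all genes in macrophages, with 5 of 9 beside 50.2% (3 higher, 2 lower, median -0.16 beside -0.04), and in neutrophils, with 2 of 10 beside 21.9% (1 higher, 1 lower, median -0.01 beside 0.00). In dendritic cells 3 of 5 were called beside 37.8% (2 higher, 1 lower, median 0.77 beside 0.05). Stat3, which carries the signals of the IL-6 family, rose in microglia (1.33 ± 0.10, mean 85.7 CPM with saline and 127.8 CPM with LPS), macrophages (1.47 ± 0.15) and dendritic cells (1.91 ± 0.28). Atf4, a factor of the integrated stress response that pairs with C/EBP proteins, rose in microglia (1.14 ± 0.13, mean 140.5 and 184.5 CPM), macrophages (1.42 ± 0.14), monocytes (0.87 ± 0.24) and dendritic cells (0.77 ± 0.29). In microglia the TMM values of Stat3 and Atf4 lie above the ratios of these CPM, by the scaling given above. Cebpg, a C/EBP protein without an activation domain, fell in microglia (-1.52 ± 0.12), monocytes (-0.79 ± 0.22) and dendritic cells (-1.25 ± 0.42), and Csf3r, the G-CSF receptor and a target of C/EBPα, fell in microglia (-2.29 ± 0.12), macrophages (-0.56 ± 0.14) and monocytes (-1.93 ± 0.18). In neutrophils Cebpe, the C/EBP factor of granule formation, fell by 1.04 on the log2 scale. Il6ra, the IL-6 receptor, rose in neutrophils (1.33 ± 0.28) and fell in microglia (-0.84 ± 0.12) and monocytes (-0.95 ± 0.26). Csf3r was also among the markers that gated neutrophils.

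Over the 40 sums of class and library, the genes most alike to each factor in log2(CPM + 1) were Ldhb (r = 0.879) and Siglech (r = 0.862) for Sall1, Ctsb (r = 0.955) and Grn (r = 0.918) for Maf, Abhd12 (r = 0.883) and Srgap2 (r = 0.876) for Mef2a and Hexa (r = 0.946) and Tgfbr1 (r = 0.937) for Mef2c. For Spi1 they were Bin3 (r = 0.887) and Slfn4 (r = 0.874), for Runx1 Ssh2 (r = 0.836) and Dusp6 (r = 0.825), for Cebpa Bank1 (r = 0.861) and Cebpg (r = 0.861), for Cebpb C3 (r = 0.856) and Mafg (r = 0.826) and for Cebpd Atg7 (r = 0.775) and Kcnj2 (r = 0.77). Cebpd had the weakest likeness. These Pearson values describe levels across sums that share 8 libraries and 5 classes, so the points are not independent. Siglech, like Sall1, is a marker of microglia in the brain, and Ctsb, Grn and Hexa encode lysosomal proteins.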

How the data were processed

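Raw gene by barcode UMI count matrices of 8 libraries were used as deposited by the authors, who aligned reads to GRCm39 with STAR within PIPseeker. Cells had at least 800 and under 45000 UMIs, at least 250 and under 6500 genes and under 5% mitochondrial UMIs. Cells were assigned to 5 myeloid and 3 lymphoid classes by the mean log level of marker genes. A class other than microglia had to pass its cutoff and lead the next immune class, microglia aside, by 1.25 times. Its microglial score had to be under 1.5 (2.3 for macrophages), while the microglial cutoff was 1.0. Microglia had to pass that cutoff with every other class under 0.75 of its own. The cutoffs were set after the scores were seen. Cells without the lead fell out, but cells over the microglial cutoff could stay in the other classes. No doublet caller was used in the main result. The members, gene lists and gates were chosen with earlier results of these data known.

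UMIs were summed per class and library, where at least 10 cells were present. edgeR 4.0.16 in R 4.3.3 (filterByExpr, TMM, glmQLFit, glmQLFTest) fitted the in vivo and ex vivo treatments. Comparisons between classes used 1 table with the library as a block. The SE is the absolute log2 fold change divided by the square root of the F statistic. The scripts were checked on simulated data. Shares of cells with a UMI used each cell thinned to 800 UMIs by its exact expectation, and intervals over libraries are ranges. Free RNA was read from barcodes of 1 to 99 UMIs, which held 15.5 to 33.7% of all UMIs. Alternatives were DESeq2 1.42.0, other scalings, gates and filters, free RNA subtraction, Scrublet scores (scanpy 1.11.5, top 8% of cells removed) and fits that left out libraries.

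The labels state that replicate numbers mark a shared capture day, so they pair libraries. Deviations of same-numbered libraries from their group means correlated across genes by 0.079 to 0.48 in microglia, 0.033 to 0.31 in macrophages, 0.18 to 0.28 in monocytes, 0.12 to 0.28 in neutrophils and -0.038 to 0.10 in dendritic cells.

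Named genes were all 9 factors, and from each list the 3 largest called rises and falls with LPS in each class, and the 2 genes of highest correlation to each factor, with a mean of at least 5 CPM. Promoter windows came from RefSeq (GRCm38.p6), matched by symbol.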

Additional observations from a re-analysis of the deposited data

Results flagged for a closer look

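In 4 of 90 groups of 4 libraries, 1 library lay apart from the others by Dixon's test, which chance gives in about 1 of 20 groups. Cebpa in dendritic cells was at 236 CPM in the saline DMSO library of replicate 1, against 112 to 133 CPM in the other saline libraries. Cebpb in macrophages was at 619 CPM in the same library, against 90.5 to 156 CPM. Mef2a in neutrophils was at 166 CPM in the saline inhibitor library of replicate 1, against 37.6 to 56 CPM. Spi1 in microglia was at 191 CPM in the LPS DMSO library of replicate 2, against 264 to 272 CPM in the other LPS libraries.

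In 21 tests the response to LPS differed between a class and microglia by edgeR's quasi-likelihood test, with values given as log2 differences, class minus microglia. In macrophages these were Cebpa (3.23), Sall1 (2.00), Mef2a (0.66), Mef2c (-0.54), Cebpd (-0.86) and Maf (-1.03). After thinning, Sall1 was in 2.37% of saline macrophages, beside 2.43% of B-cells, which should lack it. Mef2a and Mef2c lost their calls when any of several single libraries was left out. In monocytes they were Maf (3.39), Cebpa (2.18), Mef2a (1.04), Mef2c (0.54), Cebpb (-0.77) and Cebpd (-2.02), of which Mef2c and Cebpb did so too. In neutrophils they were Cebpa (2.20), Mef2a (2.11), Maf (1.61), Sall1 (1.21), Mef2c (1.08), Spi1 (0.83) and Cebpd (-1.64), of which Sall1, Maf, Mef2c, Spi1 and Cebpa lost their calls under the stricter gate. In dendritic cells they were Maf (2.95) and Mef2a (1.54).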

How the results depend on the processing

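The 29 calls with LPS became 19 to 31 over 22 alternatives, and 27 to 30 when 1 library was left out. DMSO libraries alone gave 19, the lowest, and the stricter gate gave 25, with Runx1 in monocytes gained among them. The 0 calls of DMSO against inhibitors became 1 without the filter on low counts, 2 with the replicate block, 2 on capture day 1 alone, 1 on capture day 2 alone, 1 without the cells of highest doublet score, and 0 to 1 when 1 library was left out. The LPS change in DMSO against inhibitor libraries gave 0 calls in all 17 alternatives. The comparison of LPS changes between classes gave 21 calls and 15 to 22 over 16 alternatives (17 to 22 with 1 library left out), and the comparison of saline levels 31 and 30 to 33 (30 to 31). Among the values of single factors that kept their direction, 48 of 917 alternatives of the LPS comparison lost a call and 9 gained one, and the comparison between classes lost 56 and gained 8 of 576. After free RNA was subtracted 23 of the 29 calls with LPS were left: Sall1 in macrophages and Mef2a in monocytes were not called, and Sall1 and Mef2c in neutrophils and Maf and Mef2c in dendritic cells did not pass the filter on low counts. Library size alone was added after the data were seen. Among values called in the main fit or the alternative, direction turned for Runx1 in microglia with LPS under library size alone (-0.73, called), Cebpa in neutrophils (LPS change against microglia) under the stricter gate (-0.0415, not called) and Sall1 in monocytes (LPS change against microglia) after free RNA was subtracted (-6.58, called), and the cause was not tested. Values called in neither fit changed sign in 28 of 917 alternatives of the LPS comparison and 34 of 576 of the LPS changes between classes. The same held for 43 of 834 of DMSO against inhibitors and 91 of 739 of the LPS change in DMSO against inhibitor libraries. The replicate block changed the calls of Runx1 in monocytes, Cebpb in microglia and macrophages (DMSO against inhibitors) and brought Cebpb in dendritic cells into the test. It changed no other call of the LPS and dissociation comparisons. Dendritic cells, and saline neutrophils and monocytes, are limited by cell number.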

Other observations

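Lymphocytes of the same libraries, which served above as a reference for free RNA and for shares of cells, also held some of the factors. Mef2c, which B-cells use as well, was at 168 to 270.5 CPM in B-cells with saline and 25.1 to 114 CPM with LPS. Maf, which is also a factor of helper T-cells, was at 87.7 to 197 CPM in T-cells with saline and 44.4 to 119 CPM with LPS. Spi1 was at 58.6 to 77 CPM in B-cells with saline, above T-cells (12.1 to 46.2 CPM) and NK cells (11.8 to 22.7 CPM), whereas with LPS the 3 overlapped, at 25.3 to 124 CPM in B-cells, 15.9 to 77.6 CPM in T-cells and 14.6 to 69.6 CPM in NK cells. These are ranges over 4 libraries of few cells, and no test was run.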
